A study of Mus musculus with 15 samples.

Results

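The 10 genes described here encode enzymes that turn squalene into cholesterol: Sqle, Lss, Cyp51, Tm7sf2, Msmo1, Nsdhl, Hsd17b7, Ebp, Sc5d and Dhcr7. They were chosen by gene symbol, and all 10 were measured, through 16 probe sets, among 12393 genes on Affymetrix mouse arrays. Liver RNA came from 15 mice labelled as 3-month-old adult males, in 5 groups of 3 biological replicates with 1 array each. The mice carried human alpha1-antitrypsin (AT), a protease inhibitor that the liver secretes, whose inducible expression is limited to hepatocytes and kept silent by doxycycline. Z-on mice (titled Z4) expressed the mutant Z form, a form that folds poorly and accumulates inside the cell, and M-on mice (titled M4) expressed the wild type M form, both without doxycycline. Z-off (Z1) and M-off (M1) mice carried the same transgenes but drank doxycycline at 40 µg per mL from conception. Nontransgenic littermates (WT) received no doxycycline. Transgene expression and absence of doxycycline cannot be told apart between on and off groups of a line, whereas on mice and littermates both lacked the drug. Between off mice and littermates, carrying a transgene and drinking doxycycline cannot be told apart.

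In this pathway a chain of enzymes in the membrane of the endoplasmic reticulum oxidises squalene, closes it into the ring system of lanosterol, and then strips methyl groups from lanosterol and moves or removes its double bonds until cholesterol is left. The genes are classic targets of the transcription factor SREBP-2, which is released from the endoplasmic reticulum when membrane cholesterol is low and often acts on promoters together with NF-Y and Sp1. The liver is a main site of this synthesis and uses the product for membranes, lipoproteins and bile acids.

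The arrays of the 2 on groups stood apart from the other 9 before any gene was tested. The median signal of 27 poly-A control probe sets was 2.0 to 2.3 on Z-on and 3.7 to 5.2 on M-on arrays, against 33.8 to 57.9 elsewhere. The 18S ribosomal RNA 5′ probe set read 1830.0 to 2681 on the on arrays and 75.0 to 568 on the others. The part of these differences in the on-off and on-littermate results was not tested; Z-on and M-on arrays lay on the same side. Of the M-on arrays, labelled male, numbers 1 and 2 read 1149 and 226 for Xist, the RNA of the inactive X chromosome, and 0.4 and 1.3 for the Y-linked Eif2s3y. On every other array Xist was 13.7 to 74.3, and Eif2s3y was 42.1 on M-on array 3 and 105 to 438 on the 12 arrays of the other groups. The M-line values of the enzymes are therefore also given without arrays 1 and 2, as are calls of other genes that were lost there, and the single M-on array left is assumed to vary like the other groups. Hepatocyte markers were high on all arrays (albumin, Alb, 6729 to 15837), and in whole liver RNA fewer cells of a type and less RNA per cell cannot be told apart.

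Promoters are shown first because SREBP-2, NF-Y and Sp1 are known to act there. RefSeq start sites of mouse build GRCm38.p6 were matched for 9 of the 10 genes (all but Sqle), with 11 promoters, since Dhcr7 has 3 starts. Windows of 300 bases, from 250 before to 50 after the start, were searched on both strands. The NF-Y box CCAAT was found in at least 1 window of all 9 genes and in 9 of 11 windows, against 37.41% of all 32851 promoters in the table. The Sp1 box GGGCGG was found in all 9 genes and 10 of 11 windows, against 35.66%. The E-box CACGTG was found in 3 genes and 3 of 11 windows, against 7.15% of promoters. CACCCCAC, the core of the sterol element of the LDL receptor gene, occurs in 2.867% of promoters. The related TCACNCCAC, where N is any base, occurs in 1.242%. Neither matched any of the 11 windows, which says only that these letters are not in them. An element TCACCTCA, picked after the sequences had been read, occurred in Cyp51 (positions -88 to -81) and Hsd17b7 (-117 to -110), against 1.166% of promoters.

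Printed are 4 genes with different patterns: Cyp51, low in Z-on, Tm7sf2, low in both on groups, Nsdhl, high in M-on, and Hsd17b7, high in both. Each run is the 250 bases before the start, 5′ to 3′ on the strand of the gene, and capitals mark the NF-Y box on either strand (read as ATTGG when it lies on the other one) and TCACCTCA.
Cyp51, chr5:4104698-4104947, minus strand: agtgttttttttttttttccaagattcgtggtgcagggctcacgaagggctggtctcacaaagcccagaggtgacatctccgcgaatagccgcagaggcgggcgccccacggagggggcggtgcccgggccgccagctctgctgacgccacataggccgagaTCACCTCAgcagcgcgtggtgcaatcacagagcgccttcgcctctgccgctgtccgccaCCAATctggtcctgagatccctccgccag
Tm7sf2, chr19:6067851-6068100, minus strand: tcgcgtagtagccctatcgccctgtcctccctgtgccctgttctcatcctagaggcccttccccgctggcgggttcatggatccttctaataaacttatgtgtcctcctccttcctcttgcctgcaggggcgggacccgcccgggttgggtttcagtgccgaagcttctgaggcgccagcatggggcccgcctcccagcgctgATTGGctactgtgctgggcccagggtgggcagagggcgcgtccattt
Nsdhl, chrX:72918271-72918520, plus strand: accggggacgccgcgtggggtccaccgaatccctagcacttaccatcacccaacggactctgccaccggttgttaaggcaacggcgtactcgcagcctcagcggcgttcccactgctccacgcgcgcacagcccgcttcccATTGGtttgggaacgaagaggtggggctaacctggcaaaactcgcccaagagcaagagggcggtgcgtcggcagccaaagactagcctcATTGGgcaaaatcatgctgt
Hsd17b7, chr1:169969206-169969455, minus strand: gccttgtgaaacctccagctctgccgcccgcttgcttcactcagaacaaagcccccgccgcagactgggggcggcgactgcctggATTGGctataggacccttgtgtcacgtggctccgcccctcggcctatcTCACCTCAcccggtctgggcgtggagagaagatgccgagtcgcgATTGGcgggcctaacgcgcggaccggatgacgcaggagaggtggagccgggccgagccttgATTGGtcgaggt

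Cyp51 has 1 CCAAT close to the start and TCACCTCA further upstream, while Hsd17b7 has 3 CCAAT matches, all on the other strand, and the same TCACCTCA. Tm7sf2 has 1 CCAAT match and Nsdhl has 4 in its full window, 2 of them after the start and so not in the printed run.

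**Figure D1:**
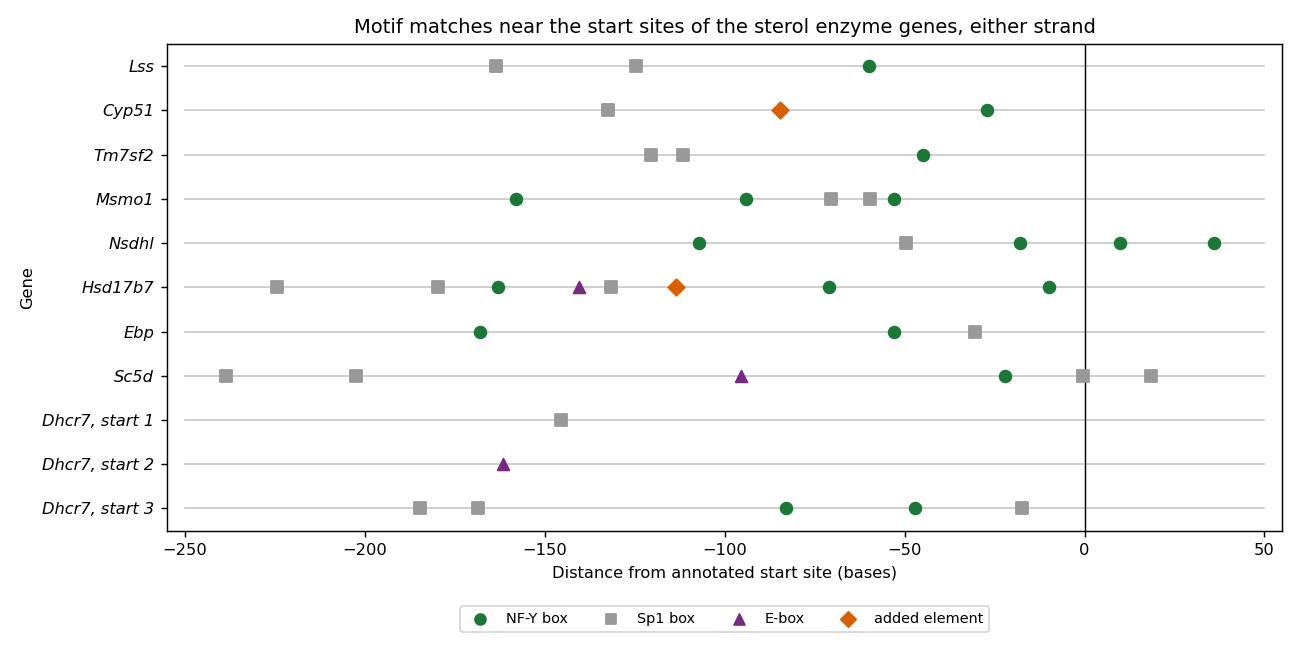
Motif matches on either strand in the windows from 250 bases before to 50 after each annotated start, 1 line per promoter for 9 genes. The NF-Y box (green circles) appears in 9 of 11 windows and the Sp1 box (grey squares) in 10; the added element (orange diamonds) is in Cyp51 and Hsd17b7.

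Most of these genes were low in livers expressing Z and high in livers expressing M. Z-on had the lowest group mean for 8 of the 10 genes and M-on the highest for 8. The shares of all genes lowest in Z-on or highest in M-on were not counted, so these 2 counts have no background. The median signal per array was 43.9 to 54.9 in M-on, 47.8 to 52.5 in Z-on and 42.3 to 44.9 in littermates. In the off groups it was at most 32.2. The part of this scaling in the M-on count was not tested. Changes were tested with limma on log2(signal + 16), which understates changes of low signals, and a gene was called when its p, adjusted by Benjamini-Hochberg over all 12393 genes, was under 0.05. In Z-on against Z-off 7 genes were lower, against 7.46% of all genes, and 1 was higher, against 31.6%; the members' median log2 change was -1.38 and that of all genes 0.25. In M-on against M-off 4 were higher, against 37.9% of all genes, and 1 was lower, against 12.4%. Here the member median of 0.31 lay close to the 0.29 of all genes, and the share called higher was near the background at the deposited scaling. After quantile normalization 4 were again higher, against 19.4% of all genes, with a member median of 0.41 against 0.03. Against littermates, Z-on had 5 lower (4.63% of all genes) and 1 higher (7.31%), median -1.01 against 0.06. M-on had 6 higher (14.4%) and 1 lower (9.43%), median 0.86 against 0.08. Among the 6, Lss and Cyp51 were called by their brightest probe set only. The other Lss probe sets gave 0.19 (adjusted p = 0.510) and -0.81 (adjusted p = 0.0558). The other Cyp51 probe sets gave 0.50 (adjusted p = 0.207) and 0.16 (adjusted p = 0.760). Without M-on arrays 1 and 2, which leaves 1 M-on array, the member median was 0.41 against M-off, with 0.28 for all genes. Against littermates it was 0.98, with 0.05 for all genes. In that comparison Lss (0.71), Cyp51 (0.96), Msmo1 and Tm7sf2 lost their calls and Ebp gained one. After quantile normalization, Ebp was the only member that lost its on-off call (adjusted p = 0.0682).

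**Figure D2:**
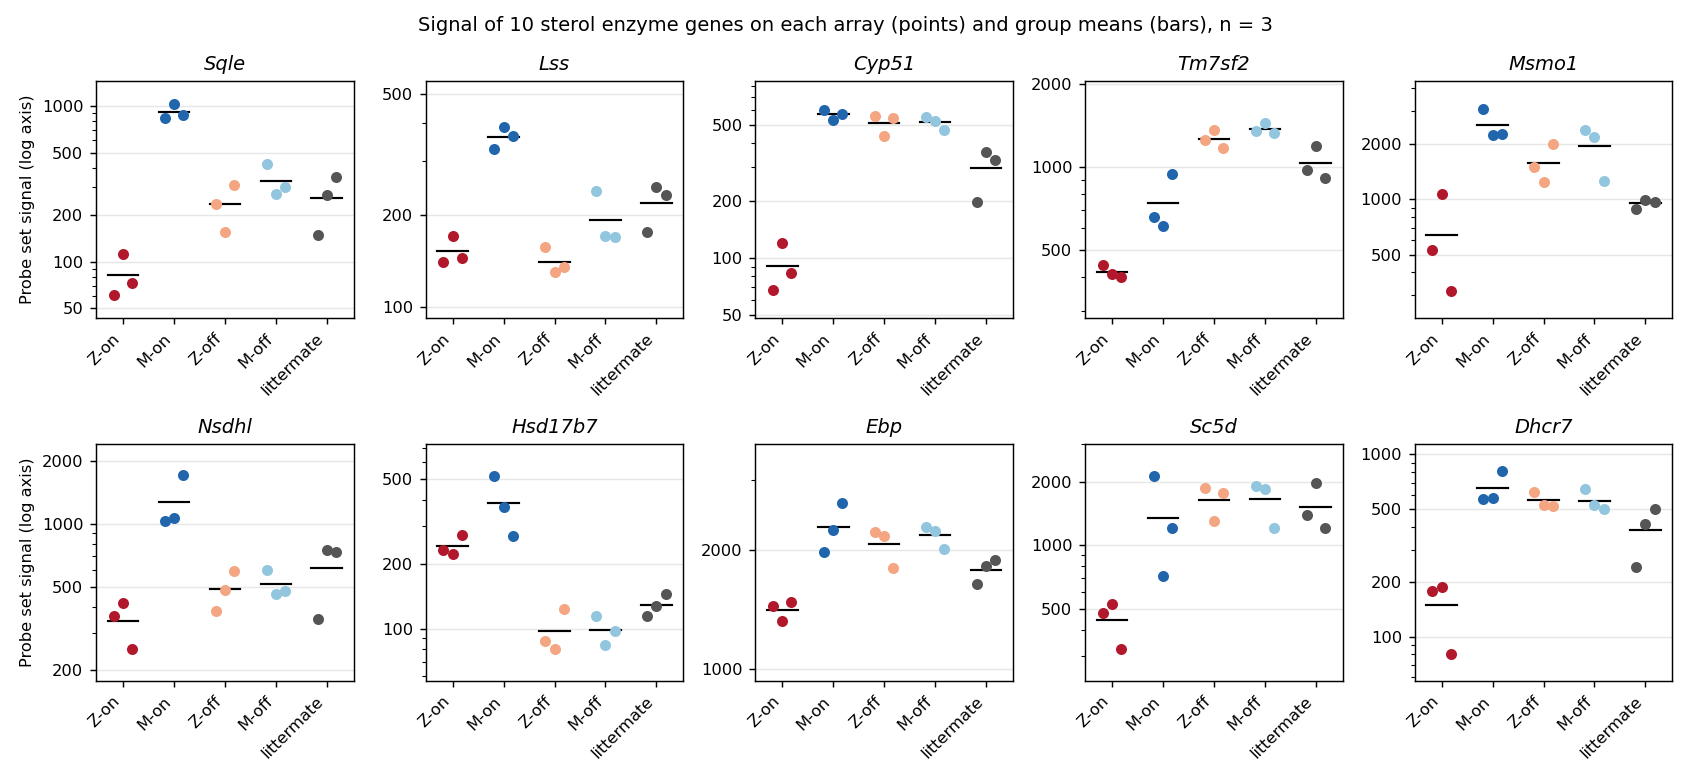
Signal of the chosen probe set of each gene on a log axis; points are single arrays (3 per group) and black bars group means. Z-on is lowest for 8 genes and M-on highest for 8; Hsd17b7 is raised in both on groups and Tm7sf2 is lowered in both.

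Squalene monooxygenase, Sqle, which makes the first oxygenated intermediate and is a control point of the pathway, showed the widest range of the 10 genes, 16.7-fold between its extreme arrays. Its signal was 61.1, 112 and 72.4 on the Z-on arrays and 842.5, 1022 and 879.8 on the M-on arrays. In Z-off it was 236, 154 and 308, in M-off 421, 272 and 302 and in littermates 148, 266.5 and 349. All Z-on arrays lay below and all M-on arrays above every array of the other 3 groups, which overlapped. Sqle was the only member called in opposite directions in the on-off comparisons, with a log2 change of -1.33 ± 0.30 (SE), adjusted p = 0.00315 in the Z line and 1.44 ± 0.30 (SE), adjusted p = 0.0013 in the M line. Against littermates it fell by 1.42 on the log2 scale in Z-on (adjusted p = 0.00772) and rose by 1.85 in M-on (adjusted p = 0.00111). The M-line rise was 1.39, adjusted p = 0.0295 without M-on arrays 1 and 2.

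Lanosterol synthase, Lss, which closes the rings, was called in the M line and not in the Z line. Z-on arrays read 141, 171 and 144 and Z-off arrays 157, 129.9 and 136, with overlapping ranges. M-on arrays read 329, 389 and 364, M-off 241, 170.4 and 169 and littermates 176, 248 and 233. M-on was above all other arrays, and Lss was higher against M-off by 0.86 ± 0.16 (SE), adjusted p = 0.000668, whereas Z-on against Z-off gave 0.10 ± 0.16 (SE), adjusted p = 0.666. The M-line rise was 0.88, adjusted p = 0.0122 without M-on arrays 1 and 2. The difference between the 2 line effects was not called (-0.76 ± 0.23 (SE), adjusted p = 0.144). Lss was also lower in Z-off than in littermates (-0.57 ± 0.16 (SE), adjusted p = 0.0209), a call lost when Z-off array 2 or 3 or littermate array 2 or 3 was left out.

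Its 3 probe sets differed. The brightest, used above, had group means of 141 to 361, while another, dimmer at 29.9 to 87.3, was lower in both on groups (log2 change -0.93, adjusted p = 0.0212 in the Z line; -1.01, adjusted p = 0.0104 in the M line). The third read 14.9 to 38.2 and was called higher in the M line (0.61, adjusted p = 0.0174). The direction of Lss in M-on differed with the probe set.

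Lanosterol demethylase, Cyp51, the cytochrome P450 that takes a methyl group off lanosterol, had the largest fall in Z-on against Z-off. The Z-on arrays read 68.2, 120.4 and 83.9, the Z-off arrays 557, 438 and 542 and the littermates 197.5, 361.5 and 327. The M-on arrays read 601, 532 and 574 and the M-off arrays 553, 523 and 472. Every Z-on array was below every other array, and littermates lay between Z-on and the 3 remaining transgenic groups. The log2 change was -2.33 ± 0.21 (SE), adjusted p = 1.11e-05 in the Z line, a 5.02-fold fall, and 0.14 ± 0.21 (SE), adjusted p = 0.61 in the M line, with a 95% confidence interval of -0.31 to 0.59. The M-line value was 0.15, adjusted p = 0.743 without M-on arrays 1 and 2. Both other Cyp51 probe sets were also called lower in the Z line (-2.03, adjusted p = 0.000112, and, for the dim one, -0.86, adjusted p = 0.0425).

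Tm7sf2, a sterol reductase that acts on the product of Cyp51, was lower in both on groups than in their off groups. It read 443, 408 and 401 in Z-on and 1250.2, 1360.1 and 1172 in Z-off. It read 658, 613 and 943 in M-on, 1355, 1449 and 1328.5 in M-off and 979, 1195 and 916 in littermates. Both on groups lay below their off groups with no overlap, and Z-on lay below M-on. The log2 changes were -1.56 ± 0.16 (SE), adjusted p = 1.74e-05 and -0.91 ± 0.16 (SE), adjusted p = 0.000356, and Tm7sf2 was the only member called lower in both lines. Without M-on arrays 1 and 2 the M-line change was -0.54, adjusted p = 0.0299. Against littermates the Z-on change was -1.26 ± 0.16 (SE), adjusted p = 0.000588 and the M-on change -0.49 ± 0.16 (SE), adjusted p = 0.0375; the latter, with overlapping arrays, became -0.12, adjusted p = 0.708 without M-on arrays 1 and 2.

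Msmo1, Nsdhl and Hsd17b7 act in turn, as oxidase, dehydrogenase and ketone reductase, to remove the methyl groups beside the sterol's hydroxyl. Msmo1, the oxidase, read 529, 1066 and 318 in Z-on and 1492, 1233 and 2001.5 in Z-off. It read 3102, 2225 and 2273 in M-on, 2376, 2164 and 1262 in M-off and 887, 989.6 and 966 in littermates. Z-on stayed below Z-off on all arrays, but array 2 of Z-on lay above the littermates, and the Z-on spread (CV 60.4%) was the widest of the 10 genes in any group. The Z-line change was -1.42 ± 0.35 (SE), adjusted p = 0.00543, the M-line change 0.42 ± 0.35 (SE), adjusted p = 0.331, and M-on exceeded littermates by 1.39 ± 0.35 (SE), adjusted p = 0.0114; without M-on arrays 1 and 2 the M-line change was 0.28, adjusted p = 0.705 and the last 1.25, adjusted p = 0.122.

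Nsdhl, the dehydrogenase, moved in the M line. It read 1026, 1068 and 1702 in M-on, 602, 462 and 477.5 in M-off and 349.6, 751 and 736 in littermates. It read 361, 419 and 251 in Z-on and 382, 480.0 and 594 in Z-off. M-on lay above all other arrays, and Z-on and Z-off overlapped. The M-line rise was 1.24 ± 0.29 (SE), adjusted p = 0.00304, and 1.71, adjusted p = 0.00633 without M-on arrays 1 and 2, while the Z-line change of -0.49 ± 0.29 (SE), adjusted p = 0.208 was not called.

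Hsd17b7, the ketone reductase, was the only member called higher in both lines. It read 234, 223 and 275 in Z-on, 87.1, 80.4 and 123 in Z-off and 114.5, 127 and 145.5 in littermates. It read 517, 370.4 and 270.2 in M-on and 115, 84.1 and 96.9 in M-off. Both on groups lay above all off and littermate arrays, and they overlapped each other. The log2 changes were 1.22 ± 0.21 (SE), adjusted p = 0.000546 in the Z line and 1.77 ± 0.21 (SE), adjusted p = 2.25e-05 in the M line, and 1.33, adjusted p = 0.00115 in the latter without M-on arrays 1 and 2. Its second probe set was also higher in both (1.19, adjusted p = 0.000905, and 1.63, adjusted p = 5.78e-05). Against littermates the rises were 0.84 ± 0.21 (SE), adjusted p = 0.0192 in Z-on and 1.43 ± 0.21 (SE), adjusted p = 0.000687 in M-on.

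The last enzymes are Ebp, an isomerase that shifts a ring double bond, Sc5d, a desaturase, and Dhcr7, the reductase that forms cholesterol in a branch of the pathway. Ebp had the smallest called fall in the Z line. It read 1443, 1319 and 1476 in Z-on, 2217, 2170.1 and 1803 in Z-off and 1639, 1823 and 1880.2 in littermates, and M-on and M-off spanned 1976 to 2619.9. All Z-on arrays lay below every other array, yet the range over all arrays was only 1.99-fold. The Z-line change was -0.54 ± 0.13 (SE), adjusted p = 0.00628 and the M-line change 0.06 ± 0.13 (SE), adjusted p = 0.733, with an interval of -0.23 to 0.35. This M-line change of Ebp was 0.27, adjusted p = 0.236 without M-on arrays 1 and 2.

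Sc5d read 478, 529 and 323 in Z-on, 1868, 1299.6 and 1772 in Z-off and 1392, 1978 and 1209 in littermates. M-on read 2138, 716 and 1205, the widest spread of M-on among the members (CV 53.4%), and M-off 1911.5, 1838 and 1204. Z-on was below every other array, and the other 4 groups overlapped. The Z-line change was -1.87 ± 0.34 (SE), adjusted p = 0.000752 and the M-line change -0.39 ± 0.34 (SE), adjusted p = 0.348. This M-line change of Sc5d was -0.42, adjusted p = 0.377 without M-on arrays 1 and 2. The dim second probe set of Sc5d was not called in the Z line (-0.48, adjusted p = 0.317).

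Dhcr7 read 178, 187 and 81.0 in Z-on, 625, 529.6 and 521 in Z-off and 239.8, 415 and 501 in littermates. M-on read 567, 577 and 808 and M-off 644, 524.5 and 504. Z-on was again below every other array, with array 3 lower than the other two, and all littermate arrays lay below every off array, though the highest of them (500.6) was close to the lowest off array (503.8). The Z-line change was -1.87 ± 0.29 (SE), adjusted p = 0.000246 and the M-line change 0.21 ± 0.29 (SE), adjusted p = 0.577, interval -0.41 to 0.82. This M-line change of Dhcr7 was 0.53, adjusted p = 0.342 without M-on arrays 1 and 2.

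**Figure D3:**
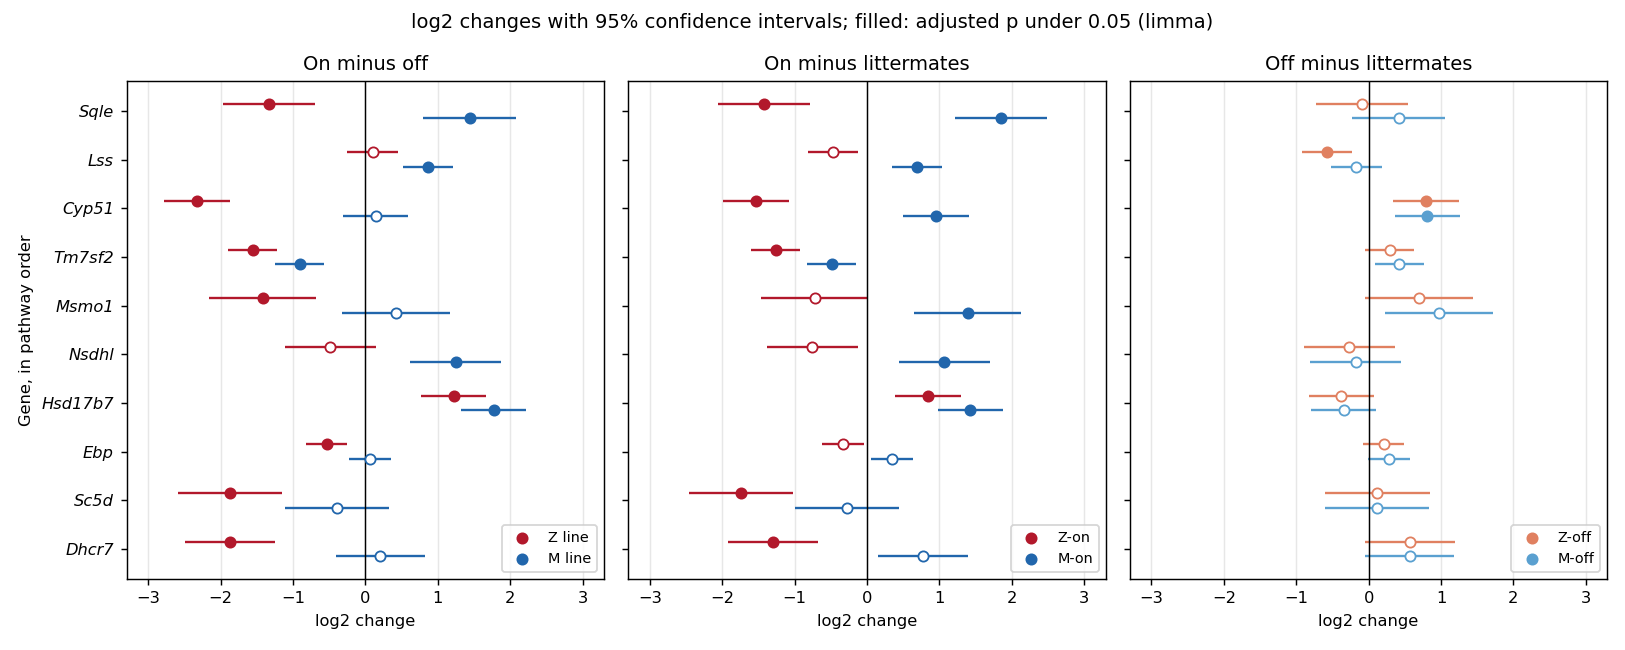
log2 changes (horizontal axis) of the 10 genes in pathway order with 95% confidence intervals, for on minus off, on minus littermates and off minus littermates. Filled points have adjusted p under 0.05: 7 fall and 1 rises in Z-on against Z-off, and 4 rise and 1 falls in M-on against M-off.

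The Z and M proteins were compared directly in Z-on against M-on, where both groups lacked doxycycline. There 9 genes were lower in Z-on, against 1.5% of all genes, and the 10 log2 changes ranged from -3.28 (Sqle) to -0.59 (Hsd17b7), with a median of -1.64 against -0.03 for all genes. Sqle differed by -3.28 ± 0.30 (SE), adjusted p = 7.53e-05, a 9.70-fold difference. Cyp51 followed with -2.48 ± 0.21 (SE), adjusted p = 5.57e-05. Hsd17b7, -0.59 ± 0.21 (SE), adjusted p = 0.124, was the member that was not called. Without M-on arrays 1 and 2 the same count of 9 was called. Calls of Ebp, Sc5d and Tm7sf2 were lost when certain single arrays were left out (Z-on 2 or 3 or M-on 2 or 3 for Ebp, any Z-on array or M-on 3 for Sc5d, Z-on 2 or 3 or M-on 3 for Tm7sf2). A fit of Z-on and M-on alone called 3 members and 18 genes in all, against 639. Other probe sets of Lss (-0.41, adjusted p = 0.252, and -0.15, adjusted p = 0.862) and Sc5d (-0.60, adjusted p = 0.390) were not called. Of the other Cyp51 probe sets, the dim one was not called (-0.56, adjusted p = 0.353) and the brighter one was lower (-1.93, adjusted p = 0.00373).

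The difference of the on-off changes of the 2 lines, tested as an interaction, was negative for all 10 genes, from -2.77 to -0.55. It was called lower for 3, against 0.307% of all genes. These were Sqle (-2.77 ± 0.42 (SE), adjusted p = 0.0199), Cyp51 (-2.47 ± 0.30 (SE), adjusted p = 0.00623) and Dhcr7 (-2.08 ± 0.41 (SE), adjusted p = 0.0425). Cyp51 kept its call in all 12 fits that left out 1 array. Neither of its other probe sets was called in this test (-1.84, adjusted p = 0.0541, and, for the dim one, -0.96, adjusted p = 0.331). Sqle lost its call without M-on 2, M-off 2 or M-off 3, and Dhcr7 kept its call in 1 of 12, without M-on 1. Without M-on arrays 1 and 2 the count rose to 6, adding Tm7sf2, Nsdhl and Ebp.

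With the transgenes off, the lines were close. Z-off against M-off gave 0 called members by limma, against 0.137% of all genes, and 1 at an unadjusted p under 0.05 (Lss, -0.40 ± 0.16 (SE), adjusted p = 0.441). The 95% intervals still allow sizeable differences: -1.15 to 0.13 for Sqle, -1.02 to 0.47 for Msmo1 and -0.37 to 0.21 for Ebp. Against littermates, Cyp51 was higher in Z-off (0.80 ± 0.21 (SE), adjusted p = 0.0151) and in M-off (0.81 ± 0.21 (SE), adjusted p = 0.0128). Counting Lss in Z-off, that made 1 higher (4.03% of all genes) and 1 lower (20.1%) in Z-off, and 1 higher (3.92%) and 0 lower (22.2%) in M-off, with 3 members at an unadjusted p under 0.05 there. The Cyp51 call in Z-off was lost without Z-off array 1 or littermate array 1, while that in M-off held in all 6 such fits. Neither other Cyp51 probe set was called by limma in Z-off or M-off against littermates. They gave 0.59 (adjusted p = 0.134) and 0.46 (0.310) in Z-off, and 0.69 (0.0791) and 0.06 (0.918) in M-off.

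**Figure D4:**
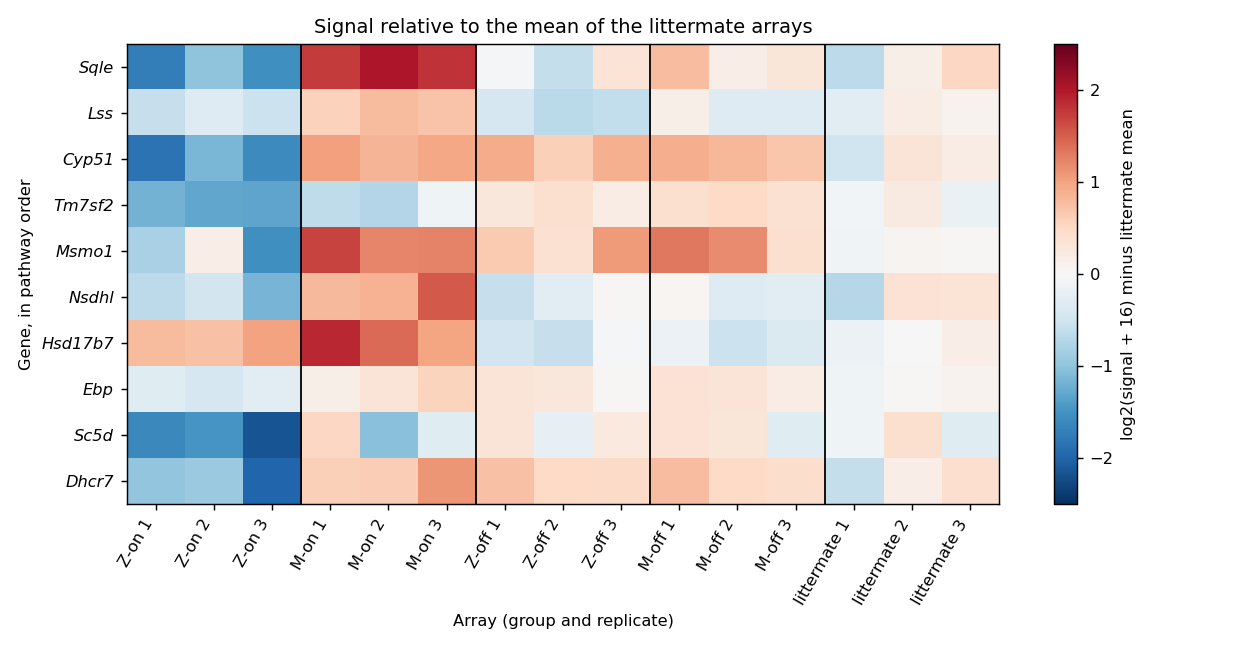
log2(signal + 16) of each gene (rows) on each array (columns) minus the mean of the 3 littermate arrays; blue is lower and red higher. Z-on columns are mostly blue apart from Hsd17b7 and Msmo1 on array 2, and M-on columns mostly red apart from Tm7sf2 and Sc5d.

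Averaged over the 10 genes, the log2 level relative to the littermate mean was -0.87 ± 0.25 (SD, n = 3) in Z-on and 0.14 ± 0.14 in Z-off. It was 0.77 ± 0.12 in M-on and 0.29 ± 0.19 in M-off. Arrays of a group also differed together: littermate array 1 and M-off array 3 lay below their group means in 10 of 10 genes, and Z-on array 2 had the highest value of its group in 7. Across the 15 arrays the 45 pairs of members had a median Pearson r of 0.63, 39 of them positive, and 0.33, 36 positive, once group means were removed. The arrays share groups and scaling, so these values only describe them. Cyp51 and Dhcr7 were the closest pair (r = 0.94), and Hsd17b7 had r = -0.06 with the mean of the other 9.

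Outside the 10, the genes whose pattern over the 15 arrays was most like the members' average were Fdps (r = 0.98), Fdft1 (0.96), Rdh11 (0.93), Mvk (0.93), Elovl1 (0.91), Mvd (0.88), Bcs1l (0.88), Erg28 (0.85), Acsm1 (0.85) and Ehd4 (0.85, at signals of 4.4 to 23.7). Fdps, Fdft1, Mvk and Mvd encode enzymes of the mevalonate branch that makes squalene, and Erg28 a scaffold protein of sterol demethylation.

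The mevalonate enzymes, of which 7 of 9 were measured, make the squalene that Sqle uses. In Z-on against Z-off 6 were lower, against 7.46% of all genes, with a median log2 change of -1.72. Named by smallest adjusted p were Pmvk (-1.56 ± 0.18 (SE), adjusted p = 3.45e-05), Fdft1 (-1.55 ± 0.19 (SE), adjusted p = 5.48e-05) and Mvk (-1.83 ± 0.26 (SE), adjusted p = 0.000142), a mevalonate kinase whose Z-on arrays read only 2.0, 12.8 and 29.5 from lowest to highest. In M-on against M-off Mvk was higher (1.19 ± 0.26 (SE), adjusted p = 0.00179), Idi1, the isoprenoid isomerase, was lower (-1.11 ± 0.41 (SE), adjusted p = 0.0348), and 5 were not called. Of all genes, 37.9% were higher and 12.4% lower there. Idi1 was no longer called after quantile normalization (-1.02, adjusted p = 0.0791). Against littermates 5 were lower in Z-on (4.63% of all genes) and 5 higher in M-on (14.4%), the latter fewer without M-on arrays 1 and 2. The interaction called 4 lower, against 0.307% of all genes. In Z-on against M-on 5 were lower, against 1.5%. Of the 2 other measured genes of the later steps, Erg28 was lower in the Z line (-0.48 ± 0.16 (SE), adjusted p = 0.0312) and higher in the M line (0.57 ± 0.16 (SE), adjusted p = 0.0101; 0.33, adjusted p = 0.251 without M-on arrays 1 and 2), and Lbr, a nuclear envelope protein with sterol reductase activity, was not called in either but was lower in the Z line after quantile normalization (-0.58, adjusted p = 0.0487) and in the M line without M-on arrays 1 and 2 (-0.71, adjusted p = 0.037).

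**Figure D5:**
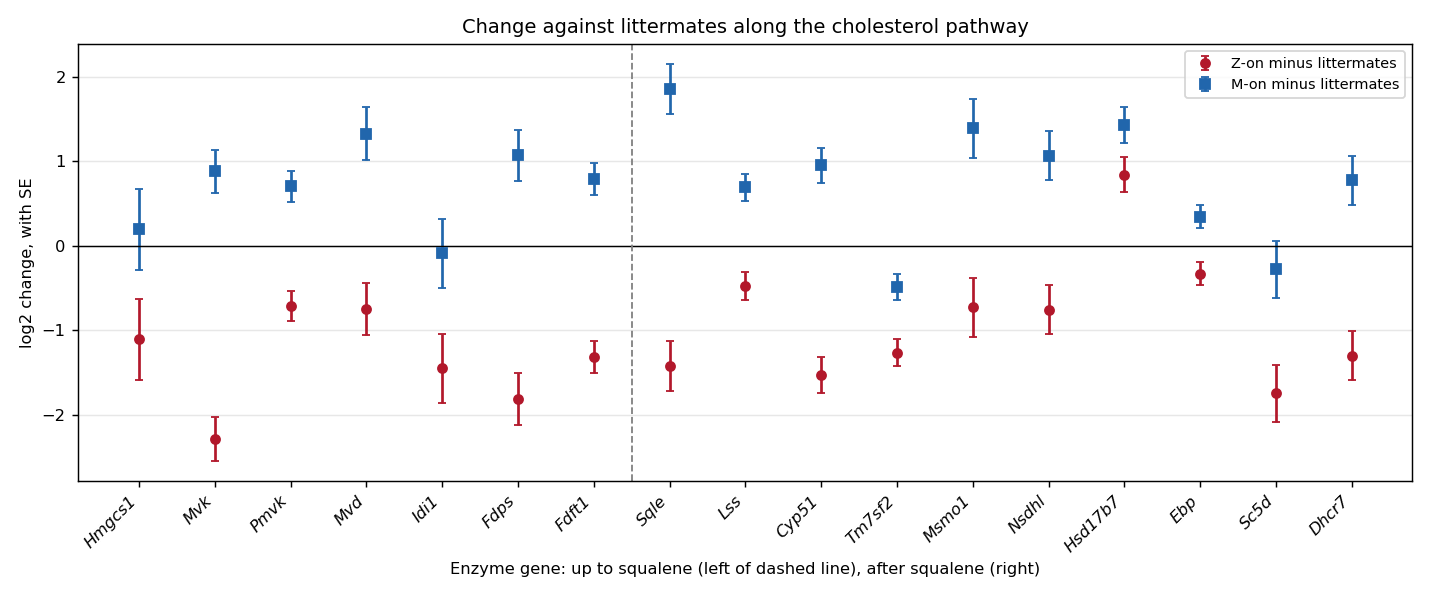
log2 change against littermates, with SE, of 7 mevalonate enzymes (left of the dashed line) and the 10 enzymes after squalene (right). Z-on (red circles) lies below 0 for every gene except Hsd17b7, and M-on (blue squares) above 0 for all but Idi1, Tm7sf2 and Sc5d.

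Of 7 measured genes that sense sterols or control the pathway, 3 were higher in the Z line, a share near the 31.6% of all genes: Srebf2, which encodes SREBP-2 itself (0.87 ± 0.21 (SE), adjusted p = 0.00569), Srebf1, its lipogenic relative (0.87 ± 0.22 (SE), adjusted p = 0.0071), and Mbtps1, a protease that cuts both (0.45 ± 0.13 (SE), adjusted p = 0.0175). In the M line, where 37.9% of all genes were higher and 12.4% lower, Mbtps1 was higher (0.45 ± 0.13 (SE), adjusted p = 0.0135) and Rnf145, a ubiquitin ligase, lower (-1.04 ± 0.32 (SE), adjusted p = 0.0143). Srebf2 read 114 to 162 in Z-on and 44.9 to 100.2 in Z-off, so its arrays did not overlap, in the comparison where 7 of the 10 enzymes were lower. Srebf1 was not called in the M line (-0.03 ± 0.22 (SE), adjusted p = 0.93), nor was Srebf2 (0.48 ± 0.21 (SE), adjusted p = 0.0775). In Z-on against M-on limma called 0 of the 7, with 2 at an unadjusted p under 0.05; without M-on arrays 1 and 2 it called 2 higher.

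Of 7 measured genes of cholesterol uptake and transfer, 5 were higher and 1 lower in the Z line, against 31.6% and 7.46% of all genes, and 3 were higher in the M line, near the 37.9% of all genes. Mylip, which directs lipoprotein receptors to degradation, rose in both (1.40 ± 0.21 (SE), adjusted p = 0.000207; 1.52 ± 0.21 (SE), adjusted p = 6.47e-05). So did Npc2, which carries cholesterol out of lysosomes (0.86 ± 0.16 (SE), adjusted p = 0.000997; 1.54 ± 0.16 (SE), adjusted p = 9.78e-06), and Scarb1, the receptor for high-density lipoprotein (0.82 ± 0.15 (SE), adjusted p = 0.000841; 0.66 ± 0.15 (SE), adjusted p = 0.0023). Of 6 genes of efflux and its regulators, 3 were higher in each line and 1 lower in each, and their median log2 change in the Z line was 0.25, like that of all genes. The sterol exporters Abcg1, Abcg5 and Abcg8 were the higher ones in both, with log2 changes of 0.68, 0.88 and 0.68 in the Z line and 0.81, 1.38 and 0.89 in the M line. Nr1h3, which encodes the sterol receptor LXR alpha, was lower in the Z line (-0.55 ± 0.15 (SE), adjusted p = 0.0102), and the exporter Abca1 was lower in the M line (-1.31 ± 0.29 (SE), adjusted p = 0.00194). Abcg1 lost its Z-line call after quantile normalization (0.33, adjusted p = 0.137), and Abcg5 its M-line call without M-on arrays 1 and 2 (0.99, adjusted p = 0.0632).

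Of 9 genes of bile acid synthesis, a use of cholesterol, Amacr was lower in the Z line (-0.49 ± 0.15 (SE), adjusted p = 0.0196) and Baat in the M line (-0.58 ± 0.17 (SE), adjusted p = 0.0103); Amacr was not called after quantile normalization (-0.31, adjusted p = 0.131). Against littermates Slc27a5, a bile acid ligase and fatty acid transporter, was lower in Z-on (-0.63 ± 0.12 (SE), adjusted p = 0.0048) and M-on (-0.53 ± 0.12 (SE), adjusted p = 0.0069), but not after quantile normalization (-0.23, adjusted p = 0.231; -0.18, adjusted p = 0.301). Cyp8b1, the hydroxylase of cholic acid synthesis, was higher in M-on than in littermates (1.32 ± 0.41 (SE), adjusted p = 0.0302; 1.67, adjusted p = 0.0774 without M-on arrays 1 and 2). Cyp7a1, the rate-limiting enzyme of bile acid synthesis, varied from 137 to 1463 among M-on arrays and was not called in any comparison (Z line 0.81 ± 0.72 (SE), adjusted p = 0.399; M line -0.19 ± 0.72 (SE), adjusted p = 0.844). 

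Of 10 fatty acid synthesis genes, Acaca was higher in both lines (0.87 ± 0.19 (SE), adjusted p = 0.00306; 0.76 ± 0.19 (SE), adjusted p = 0.00538) and Scd1, the stearoyl-CoA desaturase, lower in both (-0.89 ± 0.30 (SE), adjusted p = 0.0284; -1.58 ± 0.30 (SE), adjusted p = 0.000617). Pnpla3 was higher in the Z line (0.81 ± 0.25 (SE), adjusted p = 0.0217) and Fads2 in the M line (1.09 ± 0.24 (SE), adjusted p = 0.00198). After quantile normalization these 3 Z-line calls were lost (adjusted p = 0.244 for Acaca, 0.127 for Scd1 and 0.531 for Pnpla3), and in the M line Acaca was lost (0.08, adjusted p = 0.754). Without M-on arrays 1 and 2 the M-line calls of Acaca (0.58, adjusted p = 0.0982) and Fads2 (0.78, adjusted p = 0.0751) were lost.

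Of the 3 measured electron donors that feed the oxidising steps, limma called 0 in both on-off comparisons, also with 0 at an unadjusted p under 0.05; after quantile normalization Cyb5r3 was called higher in both (0.50, adjusted p = 0.0214; 0.44, adjusted p = 0.0255). Against littermates Cyb5r3, a reductase of cytochrome b5, was higher in Z-on (0.56 ± 0.15 (SE), adjusted p = 0.0284) and M-on (0.71 ± 0.15 (SE), adjusted p = 0.00529). Cyb5a, cytochrome b5 itself, was lower in both (-0.42 ± 0.13 (SE), adjusted p = 0.0486; -0.39 ± 0.13 (SE), adjusted p = 0.0407), with values that turned sign and were not called after quantile normalization (0.03, adjusted p = 0.92; 0.03, adjusted p = 0.911).

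Markers of other liver cells moved with some of these groups. Of all genes, 31.6% were called higher in Z-on against Z-off and 37.9% in M-on against M-off. In Z-on against M-on 1.5% were called lower. The summed signal of 10 Kupffer cell markers was 1426 to 1835 in Z-on and 3145 to 3674 in M-on, with 4 of 10 lower in Z-on against M-on; M-off read 1934 to 2009.7, with 6 of 10 higher in M-on. The summed signal of 8 stellate cell markers was 1937 to 2058 in Z-on and 1086 to 1416 in Z-off, with 5 of 8 called higher; M-on and M-off overlapped, with 3 higher. That of 8 endothelial markers was 1027 to 1126 in Z-on and 728 to 926 in Z-off, with 1 called higher, and 1127 to 1549.8 in M-on and 754 to 842 in M-off, with 5 higher. That of 8 lymphoid and myeloid markers was 160.1 to 186 in Z-on against 85.8 to 98.2 in Z-off, with 2 higher, and 245 to 266 in M-on against 85.5 to 171 in M-off, with 4 higher. The stellate count in the M line was near the share of all genes. The endothelial count and the lymphoid and myeloid count in the Z line were below it. The summed signal of 5 cholangiocyte markers was low throughout, 25.9 to 107.8. The 8 measured hepatocyte markers summed to 42682 to 47108 in Z-on and 43706 to 51139 in M-on, overlapping. They summed to 48444 to 57792 in Z-off and 47704 to 52483 in M-off. Littermates, at 72084 to 84734, lay above every transgenic array, on or off. The summed signal of 6 genes of female-type liver was 540 to 10303 in M-on and 34.7 to 696 elsewhere. The part of these markers in the sterol enzyme results was not tested.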

How the data were processed

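The authors deposited 1 linear intensity per probe set and array (0 to 22995.4). RMA, with no version, is the only tool per the submitters' processing notes, and no source used here gives the scaling. Of 22690 probe sets, 20380 had 1 gene, 691 several and 1555 none. For each of 12393 genes the probe set with the highest mean of log2(signal + 16) was used; 4956 genes had more than 1. Of the members, 6 had 1 probe set, 2 had 2 and 2 had 3.

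With limma 3.58.1 in R 4.3.3 a mean for each group was fitted over the 15 arrays (10 residual and 3.89 prior degrees of freedom), for 9 two-sided contrasts, adjusted by Benjamini-Hochberg within each. The p-values rest on the spread between biological replicates within groups, pooled over the 5 groups and moderated by that of all genes. The fit was tested on simulated data. Precision is limited by the number of arrays.

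The members, gene lists, motifs and markers were chosen with earlier results of these data known. All members were described in every contrast. From each pathway list, up to 3 called genes with the smallest adjusted p in each on-off contrast were named, with Srebf1, Srebf2, Cyp7a1 and the 10 genes of highest r; Lbr, Abca1, Slc27a5, Cyp8b1, Cyb5a and Cyb5r3 were named after their values were seen. Alternatives were other constants, quantile normalization, only the groups compared, no dim genes, all probe sets, the replicate number as a block, and arrays left out. For pathway genes, quantile normalization and leaving out M-on arrays 1 and 2 were added after seeing the data. Replicate numbers did not pair arrays: the deviations of same-numbered arrays had correlations of -0.17 to 0.07. Some genes of the lists were not analysed here.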

Additional observations from a re-analysis of the deposited data

Results flagged for a closer look

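In 3 genes the change between on and off differed between the Z and the M line by the test of that difference itself. Sqle fell in the Z line and rose in the M line, and the difference was -2.77 on the log2 scale (limma, adjusted p = 0.0199). Cyp51 fell in the Z line, with 0.14 in the M line, a difference of -2.47 (adjusted p = 0.00623). Dhcr7 fell in the Z line, with 0.21 in the M line, a difference of -2.08 (adjusted p = 0.0425). With M-on arrays 1 and 2 left out, the differences were -2.72, -2.48 and -2.40, and all 3 were called. Dhcr7 lost its call in 11 of the 12 fits that each left out 1 array, keeping it without M-on 1, and with the replicate number as a block (adjusted p = 0.0678). Sqle lost its call in 3 of the 12, without M-on 2, M-off 2 or M-off 3, and Cyp51 kept its call in all 12. However, Cyp51 was called here by its brightest probe set only. Its others were not called (-1.84, adjusted p = 0.0541, and -0.96, adjusted p = 0.331).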

How the results depend on the processing

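Of 1310 values of single members under an alternative, 1200 kept their side of the threshold, 87 lost a call and 23 gained one. None that was called changed sign. Some that were not called did, such as Lss in the Z line, from 0.10 to -0.095 after quantile normalization. Called members numbered 8 in the Z on-off and 5 in the M on-off comparison, and every single call of these held in each of the fits without 1 array. In Z-on against M-on 9 fell to 3 when only the groups compared were fitted, and to 3 without M-on arrays 2 and 3. In M-on against littermates 7 fell to 3 with only the groups compared, to 4 without M-on arrays 1 and 2 and to 3 without 2 and 3. In Z-off against littermates 2 fell to 1 in every fit without 1 array and to 1 with all probe sets. With all probe sets the interaction called 2, Z-on against M-on 7, and M-on against littermates 4 higher and 1 lower. Z-on against M-on also called 7 with the constant 1. In M-off against littermates 1 became 2 with the constant 64, 2 with only the groups compared, 1 to 2 without 1 array, and 0 with all probe sets. The interaction's 3 became 1 to 5 without 1 array (5 without M-on 1), 6 without M-on arrays 1 and 2 and 1 without 2 and 3. Against littermates, Nsdhl in M-on lost its call without M-on 3 or littermate 1, Tm7sf2 in M-on without M-on 1 or 2 or littermate 1 or 2, and Hsd17b7 in Z-on without Z-on 3 or littermate 1 or 2.

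With the replicate block the interaction called 2 members, M-on against littermates 6 and the other comparisons as many as without it; the block left 11 of 76 genes called in the interaction. Same-numbered arrays had a median correlation of -0.01 in their deviations over 30 pairs, with 0 over 0.1, so the numbers were not treated as pairs.

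Counts over all genes moved more. Z-on against M-on called 639, but 144 with the constant 1, 18 with only its groups, 76 (without M-on 2) to 1677 (without M-on 1) without 1 array, 1272 without M-on 1 and 2, 69 without 2 and 3, and 970 with all probe sets. The interaction called 76, but 23 and 135 with the constants 1 and 64, 18 with only its groups, 2 (without M-off 2) to 1030 (without M-on 1) without 1 array, 811 without M-on 1 and 2, and 50 without 2 and 3. Z-on against Z-off called 4838, but 3123 after quantile normalization, 3153 without dim genes and 7357 with all probe sets; M-on against M-off 6239, but 4152 and 9551 with the last 2. Against littermates Z-on called 1480, but 976 (constant 1), 956 (only groups), 932 (without Z-on 3) and 2405 (all probe sets). M-on called 2958, but 888 (only groups), 1903 (without M-on 2), 1153 (without M-on 2 and 3) and 4681 (all probe sets). Z-off called 2996, but 1449 (quantile) and 1757 (without dim genes); M-off 3243, but 1512 and 1860. Z-off against M-off called 17, but 27 (constant 1), 37 (only groups) and 6 to 51 without 1 array. Quantile normalization moved the share of higher calls from 80.9% to 51.7% in the Z and from 75.4% to 52.1% in the M on-off comparison, from 61.2% to 49.7% and 60.5% to 50.3% in Z-on and M-on against littermates, and from 16.7% to 49.7% and 14.99% to 47.6% in Z-off and M-off. The causes were not tested. Dim genes had means under the 40th percentile.

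For the pathway genes, 2 settings were added after seeing the data. Of 51 genes, quantile normalization ended 7 calls and added 3 in the Z on-off comparison, and ended 2 and added 3 in the M on-off comparison. Leaving out M-on arrays 1 and 2 ended 4 M on-off calls and added 5, and against littermates ended 10 and added 5. Cyb5a against littermates turned from -0.42 to 0.0334 in Z-on and from -0.39 to 0.0281 in M-on after quantile normalization.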
